A study of Gallus gallus with 60 samples.

Results

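Neurotransmitter receptor genes were followed in the chicken utricle, a balance organ of the inner ear, after damage by the hair cell toxin streptomycin and in control organs. The genes were chosen by symbol, as those whose names carry the usual prefixes of nicotinic, muscarinic, glutamate, GABA, glycine, purine, serotonin, adrenergic and dopamine receptors, and by level, as RPKM (reads per kilobase of transcript and per 1000000 alignments) of 1 or more in at least 2 libraries. Of 90 matching symbols 48 met the level rule, out of 13862 rows that met it in the whole table. Of these, 45 encode receptors. The other 3 matched by name alone: ADRBK1 and ADRBK2 encode kinases that phosphorylate activated receptors, and GRID2IP encodes a protein of glutamatergic synapses.

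RNA of whole utricles had been sequenced in 60 libraries from 56 biological samples. Treated utricles were exposed to streptomycin for 24 h and then left to recover, and control utricles are labelled only as controls. Each arm was sampled at 0, 24, 48, 54, 60, 66, 72, 96, 120, 144 and 168 h, with 2 to 4 biological samples per arm and time. The labels do not give the moment from which the hours were counted, the age or strain of the animals, or whether organs were pooled, so each p-value speaks only to variation among the samples at hand, which may be technical.

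Hair cells, the sensory cells of the utricle, release glutamate onto afferent nerve endings and receive acetylcholine from efferent fibres of the brainstem. The efferent signal acts on a nicotinic receptor built from CHRNA9 and CHRNA10 subunits, and the calcium that enters through it opens potassium channels that inhibit the cell. Supporting cells of the bird utricle can divide or convert to replace lost hair cells. Ionotropic glutamate, GABA and glycine receptors are known mainly from neurons, and P2X and P2Y receptors for extracellular nucleotides are widespread in epithelia, glia and immune cells.

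Library depth ranged from 1486991 to 40331879 alignments, with a median of 21154441, and 7 libraries had fewer than 5000000. The 16 genes of a hair cell marker list were all present: their summed RPKM was 542 to 2438 in the 28 control samples, with a median of 1625, and 204 to 686 in the 28 treated samples, with a median of 321. All 16 fell over the 11 times. The control sample 168 h replicate 3 stood apart by the lowest control hair cell sum, 542 against 946 or more in the others. It had the lowest control value for 15 of the 48 genes, and control 24 h replicate 2 had it for 12. Results that control 168 h replicate 3 decides are given with and without that sample.

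Averaged over the 11 times, 3 of the 48 genes were higher in treated utricles and 12 were lower, at an adjusted p under 0.05 in a limma fit across all rows. That share of 31.2% stood beside a background of 31.1% of all rows tested, of which 18.5% were higher and 12.5% were lower. The median log2 difference was -0.09 for the 48 genes and 0.06 for all rows. Lower values predominated at first: over 0 and 24 h, 1 gene rose and 10 fell (background 12.8% of rows, 6.77% higher and 5.98% lower), and over 48 to 72 h, 2 rose and 13 fell (background 19.3%, 9.13% higher and 10.2% lower). Over 96 to 168 h, 7 rose and 5 fell (background 16.8%, 9.65% higher and 7.11% lower). Without control 168 h replicate 3 that last count was 5 and 6, and the share of all rows in that fit is not given here.

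**Figure D1:**
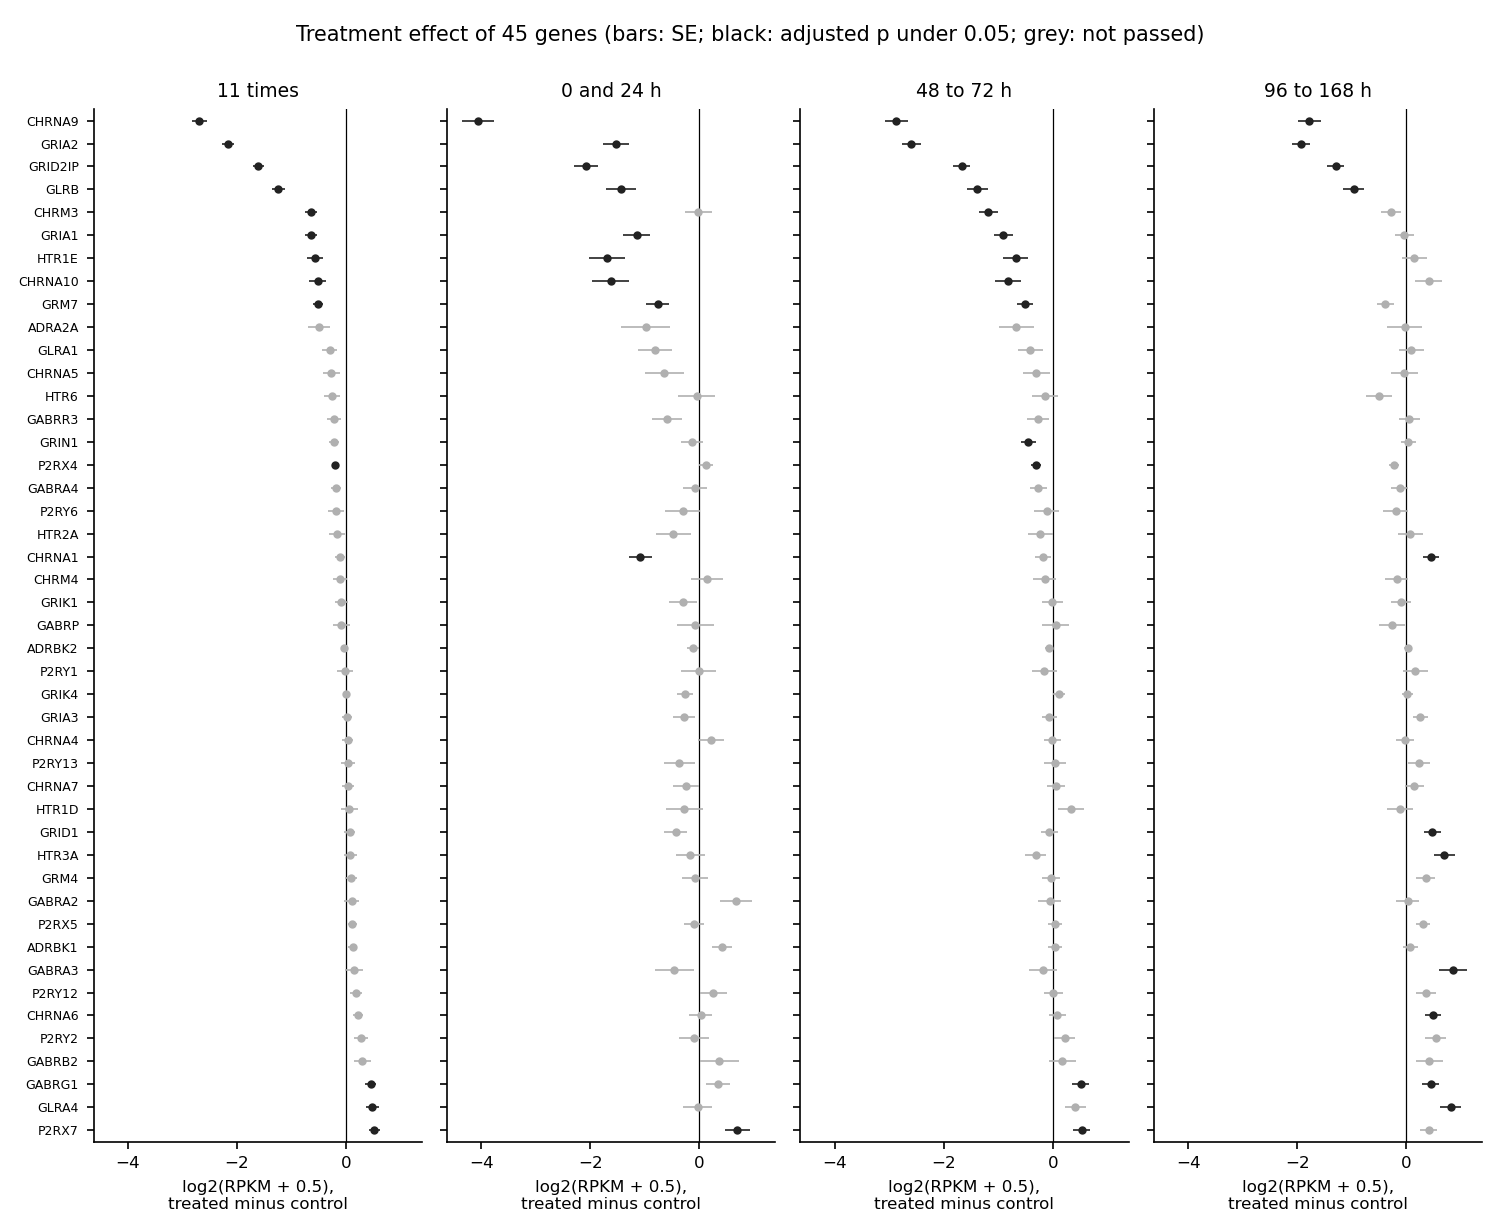
Treated minus control difference in log2(RPKM + 0.5) for 45 of the 48 genes, averaged over 11 times and over 3 windows, with the SE as bars, black where the adjusted p was under 0.05 and grey where it was not. CHRNA9 and GRIA2 head the list, at -2.69 and -2.16 over 11 times, and most genes lie within 1 unit of 0.

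CHRNA9, the subunit by which the efferent receptor of hair cells is known, was the gene with the largest difference. At 0 h the control samples stood at 50.2 and 76.7 RPKM and the treated samples at 4.03 and 3.79 RPKM. At 24 h the controls had 39.2, 30.04, 31.8 and 42.8 RPKM, and the treated samples 0, 2.07, 1.86 and 3.33 RPKM. The arms were far apart at both times, and the treated sample listed at 0 came from a library under 5000000 alignments. Over 48 to 72 h the controls spanned 31.4 to 65.0 RPKM (median 45, n = 11) and the treated samples 2.96 to 8.75 RPKM (median 5.76, n = 11). At 168 h the controls had 19.8, 14.4 and 11.6 RPKM, and the treated samples had 6.24, 4.03 and 8.18 RPKM. Across all 56 samples the lowest control, 11.6 RPKM, lay above the highest treated sample, 8.75 RPKM.

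CHRNA9 fell in every window, by 4.06 ± 0.30 log2 units (SE; adjusted p = 3.55e-13) over 0 and 24 h, by 2.87 ± 0.21 (adjusted p = 4.05e-14) over 48 to 72 h and by 1.78 ± 0.21 (adjusted p = 2.82e-08) over 96 to 168 h. Without the libraries under 5000000 alignments the first of these was -3.77 (adjusted p = 1.34e-13). The difference narrowed by 2.28 ± 0.36 between the first and the last window (adjusted p = 0.000135), and CHRNA9 was the only one of the 48 whose effect differed between times by the F test (F = 5.25, adjusted p = 0.0126), where 1.48% of all rows passed. With samples paired by replicate number 4 of the 48 passed that F test, where 4.17% of all rows did. At single times CHRNA9 passed the test from 0 to 120 h, and not at 144 h (-1.81, adjusted p = 0.0933) or 168 h (-1.26, adjusted p = 0.104). In whole organs, fewer cells of a type and less RNA per cell cannot be told apart.

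The narrowing had a part in each arm. Group means of treated utricles lay between 4.76 and 7.09 RPKM at every time from 48 to 168 h, above the 3.91 ± 0.17 RPKM at 0 h (SD, n = 2) and the 1.81 ± 1.37 at 24 h (n = 4). Control means went from 63.5 ± 18.7 RPKM at 0 h (n = 2) to 15.3 ± 4.13 at 168 h (n = 3). From the first to the last window CHRNA9 rose by 1.24 log2 units within treated utricles (adjusted p = 0.000231) and fell by 1.04 within controls (adjusted p = 0.00324). The fall within controls rested in part on control 0 h replicate 2, without which its adjusted p was 0.0522.

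CHRNA10, the partner subunit, fell in the first 2 windows and was not called in the last. Over 0 and 24 h the controls spanned 13.4 to 37.7 RPKM (median 21.0, n = 6) and the treated samples 3.07 to 13.2 RPKM (median 6.78, n = 6), with no overlap. Over 48 to 72 h the ranges were 10.7 to 47.1 RPKM (median 20.9) in controls and 6.10 to 30.7 RPKM (median 11.8) in treated utricles, and over 96 to 168 h they were 5.48 to 42.1 RPKM (median 22.2) and 12.5 to 60.9 RPKM (median 24.0). The arms overlapped in both later windows. The effect was -1.63 ± 0.35 log2 units (adjusted p = 0.00093), then -0.82 ± 0.24 (adjusted p = 0.0129), then 0.41 ± 0.24, which did not pass the test (adjusted p = 0.283).

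For CHRNA10 the late effect exceeded the early one by 2.04 ± 0.42 (adjusted p = 0.00246). Within treated utricles CHRNA10 rose by 1.98 from the first to the last window (adjusted p = 2.87e-06), whereas within controls the change was -0.06 (adjusted p = 0.915). At 168 h the treated samples had 60.9, 42.0 and 24.0 RPKM and the controls 15.2, 24.3 and 5.48 RPKM. In each arm the first value came from a library under 5000000 alignments. The difference at 168 h, 1.59 ± 0.46, did not pass the test (adjusted p = 0.0707), and without control 168 h replicate 3 it was 1.02. Without libraries under 5000000 alignments it was 1.41 (adjusted p = 0.267).

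**Figure D2:**
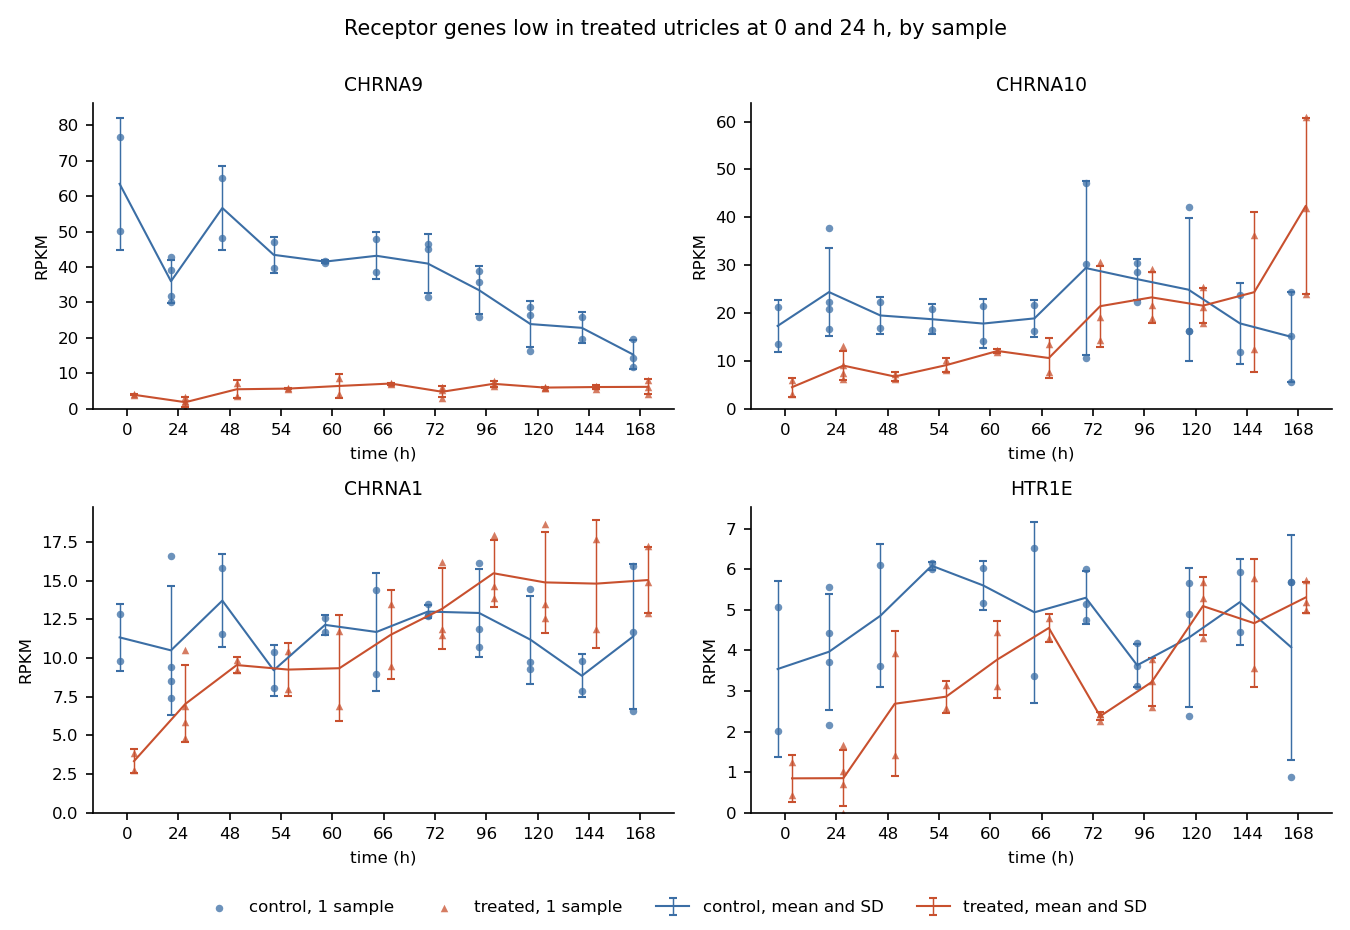
RPKM by time in hours for CHRNA9, CHRNA10, CHRNA1 and HTR1E, each point 1 biological sample, lines joining group means with the SD as bars, control in blue circles and treated in orange-red triangles. Treated CHRNA9 stays at or below 8.75 RPKM throughout, while treated CHRNA10, CHRNA1 and HTR1E climb into the control range.

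The balance of the 2 subunits differed between arms. CHRNA10 RPKM divided by CHRNA9 RPKM was 0.23 to 1.69 in the 28 controls (median 0.526) and 0.763 to 10.4 in the 27 treated samples where CHRNA9 was above 0 (median 2.94). On the log2(RPKM + 0.5) scale CHRNA10 minus CHRNA9 was higher in treated utricles by 2.17, in the same direction at 11 of 11 times (permutation test within times, two-sided, p = 1e-05, the smallest 100000 resamples can give; 4e-05 adjusted over 8 tests). The gap was 2.43 over 0 and 24 h (exact permutation p = 0.00476), 2.05 over 48 to 72 h (exact p = 7.72e-05) and 2.19 over 96 to 168 h (exact p = 4.17e-05). Each is the smallest p that free exchange of labels within times allows. Exchange only within samples paired by replicate number would allow fewer arrangements, and its p-values are not given here.

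CHRNA9 was also compared with the mean log2 level of the 16 hair cell genes in the same sample. Relative to that mean CHRNA9 was lower in treated utricles by 0.88 log2 units over the 11 times, and lower at 11 of 11 (permutation p = 1e-05). The shortfall was -1.75 over 0 and 24 h (exact p = 0.00476), -0.77 over 48 to 72 h (exact p = 7.72e-05) and -0.58 over 96 to 168 h (exact p = 0.00171). The hair cell mean itself differed by -2.31, -2.10 and -1.20 log2 units in the 3 windows. Single genes of the list fell to unlike extents. Over the 11 times its 2 largest falls were SLC17A8 at -2.77 and OCM2 at -2.54, and CHRNA9, at -2.69, lay between them. The shortfall is thus against the mean of the list, not against each of its genes. The part that hair cell number played in the CHRNA9 and CHRNA10 values was not tested beyond this comparison.

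**Figure D3:**
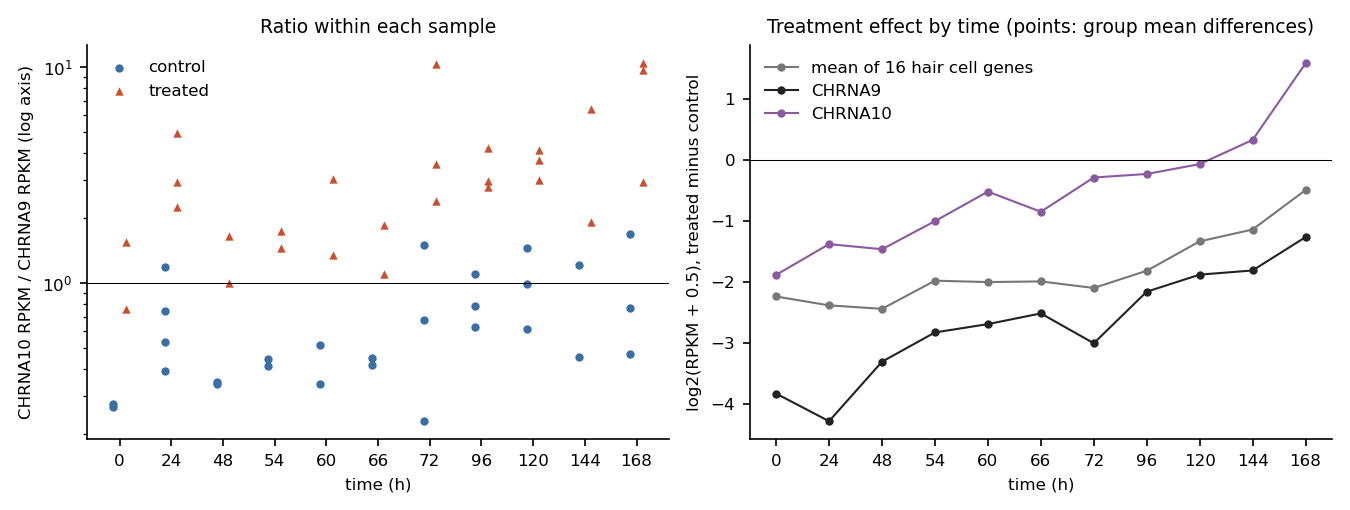
Left, the ratio of CHRNA10 to CHRNA9 RPKM in each biological sample by time in hours, on a log axis; right, treated minus control difference in log2(RPKM + 0.5) by time for CHRNA9, CHRNA10 and the mean of 16 hair cell genes. At every time the 3 lines keep their order, with CHRNA10 on top, the hair cell mean between, and CHRNA9 lowest.

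Genes of the same synapse were taken from a list of 17 symbols, of which 9 were tested. Over 11 times 5 fell and 1 rose, beside 12.5% of all rows lower and 18.5% higher. SLC5A7, the choline transporter of cholinergic terminals, fell by 1.58 ± 0.13 log2 units (adjusted p = 1.11e-12), from a control mean of 1.402 RPKM to 0.0815 RPKM. CHAT and SLC18A3 of the same list were under the level rule, and the part of cholinergic terminals in the SLC5A7 values was not tested. KCNMA1, a calcium-activated potassium channel, fell by 1.56 ± 0.08 (adjusted p = 1.39e-18). KCNN2, the small-conductance potassium channel coupled to the CHRNA9 and CHRNA10 receptor, was picked after its values were seen and fell by 0.31 ± 0.10 (adjusted p = 0.0139). RAPSN, which clusters muscle-type nicotinic receptors, rose by 0.65 ± 0.12 (adjusted p = 8e-05).

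The effects most like that of CHRNA9 belonged to other genes of the table, not to another receptor. Ranked by the root mean square difference from CHRNA9 over the 11 treatment effects, among 11539 rows with a symbol, the nearest were SLC17A8 (0.413 log2 units), OCM2 (0.464), ELFN1 (0.473), E1C693_CHICK (0.524) and GRXCR2 (0.544). SLC17A8 encodes the vesicular glutamate transporter of hair cells and OCM2 a calcium-binding protein. SLC17A8, OCM2 and GRXCR2 are also members of the hair cell list. The nearest of the 48 was GRIA2, at rank 78 with 1.13. This likeness is a description over 11 times whose effects were all drawn from the same samples.

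Of the other nicotinic subunits, CHRNA1, the alpha subunit of the muscle-type receptor, also started low. Like CHRNA6 and GRID1, it lies outside the rule for genes described singly and was picked after its values were seen. At 0 h CHRNA1 stood at 9.82 and 12.9 RPKM in controls and at 3.89 and 2.78 RPKM in treated utricles. Over 96 to 168 h it spanned 6.58 to 16.2 RPKM (median 10.7) in controls and 11.9 to 18.7 RPKM (median 14.6) in treated utricles. It was low in both treated samples at 0 h, and the late ranges overlapped.

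The CHRNA1 effect went from -1.08 ± 0.21 (adjusted p = 0.000318) to 0.46 ± 0.15 (adjusted p = 0.0296), a change of 1.54 ± 0.26 (adjusted p = 0.000289). The late rise was lost when any of 7 single samples was left out, control 168 h replicate 3 among them (adjusted p = 0.071), while the early fall was kept. CHRNA6, a neuronal subunit near the level threshold, rose late by 0.49 ± 0.15 (adjusted p = 0.0224), and lost the call without the low-depth libraries (adjusted p = 0.0515). CHRNA4, CHRNA5 and CHRNA7 did not pass in any window, with effects from -0.64 to 0.21.

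CHRM3, a muscarinic receptor that signals through phospholipase C, differed between arms mainly in the middle window, where control levels were higher than before. Over 0 and 24 h its median was 1.66 RPKM in controls and 1.14 RPKM in treated utricles. Control groups of CHRM3 differed between times by the F test (adjusted p = 0.00828). Over 48 to 72 h it spanned 2.06 to 6.13 RPKM (median 4.4) in controls and 0.667 to 2.197 RPKM (median 1.67) in treated utricles, and the effect was -1.18 ± 0.18 (adjusted p = 1.99e-06). In the first window its effect was -0.02 and in the last -0.28, and neither passed. CHRM4 did not pass in any window.

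GRIA2, the AMPA receptor subunit that keeps calcium out of the channel, was with CHRNA9 the only gene of the 48 whose arms did not overlap across the 56 samples. The share of all rows without such overlap was not computed, so this does not set the 2 genes apart from the rest of the table. Over 0 and 24 h GRIA2 spanned 6.98 to 17.8 RPKM (median 11.96) in controls and 0.857 to 6.78 RPKM (median 3.81) in treated utricles. The treated samples were highest at 0 h, with 6.78 and 5.55 RPKM, and at 24 h they had 6.23, 0.857, 2.07 and 1.94 RPKM, the first from a library under 5000000 alignments. In the window of 48 to 72 h the treated samples lay at 1.19 to 2.58 RPKM against 9.34 to 17.8 RPKM in controls, and over 96 to 168 h at 1.55 to 5.25 RPKM against 7.15 to 15.8 RPKM. The gap was widest in the middle window and narrowed after 96 h. In log2 units it was -2.73 at 96 h, -2.02 at 120 h, -1.80 at 144 h and -1.16 ± 0.32 at 168 h. At 168 h it did not pass the limma test (adjusted p = 0.0534).

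The gap was as wide or wider without libraries under 5000000 alignments (-1.91 over 0 and 24 h). The GRIA2 effect was -1.53 ± 0.24 (adjusted p = 1.07e-05), -2.60 ± 0.17 (adjusted p = 2.17e-15) and -1.93 ± 0.17 (adjusted p = 2.73e-11) in the 3 windows. Unlike CHRNA9 it showed no passing change between the first and last window (-0.40 ± 0.29, adjusted p = 0.453), and within treated utricles that change was -0.43 (adjusted p = 0.106).

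GRIA1, another AMPA subunit, was low in treated utricles in the first 2 windows. It spanned 1.88 to 4.95 RPKM (median 2.24) in treated utricles over 0 and 24 h against 3.96 to 13.7 RPKM (median 6.57) in controls, and 4.67 to 10.2 RPKM (median 7.87) over 96 to 168 h against 5.33 to 14.02 RPKM (median 6.97). From 48 to 72 h the treated samples lay at 1.74 to 5.98 RPKM against 5.43 to 10.1 RPKM in controls. Overlap was slight in these windows and nearly complete in the last. The effect went from -1.15 ± 0.25 (adjusted p = 0.00111) through -0.91 ± 0.18 (adjusted p = 0.00013) to -0.04 ± 0.18, a change of 1.12 ± 0.30 (adjusted p = 0.0174). That change lost the call without control 0 h replicate 2 or treated 0 h replicate 1 (adjusted p up to 0.0954). GRIA3 did not pass in any window, its effects lying between -0.29 and 0.26.

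GRID2IP, a scaffold protein of glutamatergic synapses, fell in every window. It spanned 1.07 to 6.34 RPKM (median 3.66) in controls and 0.201 to 1.85 RPKM (median 0.926) in treated utricles over all times, and the arms did not overlap in the first 2 windows. It fell by 2.09 ± 0.22, 1.67 ± 0.16 and 1.30 ± 0.16 log2 units in turn (adjusted p = 3.81e-09, 3.6e-11 and 5.58e-08). GRID1 rose late by 0.48 ± 0.15 (adjusted p = 0.0234). That call was lost on leaving out any of 4 single samples, control 168 h replicate 3 among them (adjusted p = 0.0576).

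GRM7, a metabotropic receptor of presynaptic terminals, was lower over 11 times by 0.51 ± 0.10 (adjusted p = 4.45e-05), at 0.363 to 2.08 RPKM in controls and 0.112 to 1.82 RPKM in treated utricles. Its early fall of 0.77 lost the call without control 0 h replicate 2 or treated 0 h replicate 1 (adjusted p up to 0.0729). GRIN1, the NMDA subunit, fell over 48 to 72 h by 0.45 ± 0.14 (adjusted p = 0.0218). Its values there were all under 1 RPKM, at 0.306 to 0.848 in controls and 0.0811 to 0.4175 in treated utricles. GRIK1, GRIK4 and GRM4 did not pass in any window.

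Of 26 listed scaffold and auxiliary proteins of glutamate receptors 17 were tested, and 8 fell and 2 rose over 11 times. Of all rows 12.5% were lower and 18.5% higher over these times. SHANK3 and DLG2, both postsynaptic scaffolds, fell by 1.70 ± 0.16 (adjusted p = 2.1e-11) and 1.51 ± 0.11 (adjusted p = 6.65e-15). HOMER3 and NETO2 rose, by 0.53 and 0.38. In the neuron marker list 2 of 8 tested genes rose and 2 fell, its summed RPKM being 90.2 to 316 in controls and 79.3 to 243 in treated utricles. SNAP25, of the release machinery, fell by 1.70 ± 0.10 (adjusted p = 2.78e-17) and GAP43, of growing axons, by 0.60 ± 0.12 (adjusted p = 0.000128). NTRK2, a neurotrophin receptor, rose by 0.32 ± 0.12 (adjusted p = 0.0323) and ELAVL4, a neuronal RNA-binding protein, by 0.32 ± 0.08 (adjusted p = 0.00136). The part of nerve endings in the receptor values was not tested.

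**Figure D4:**
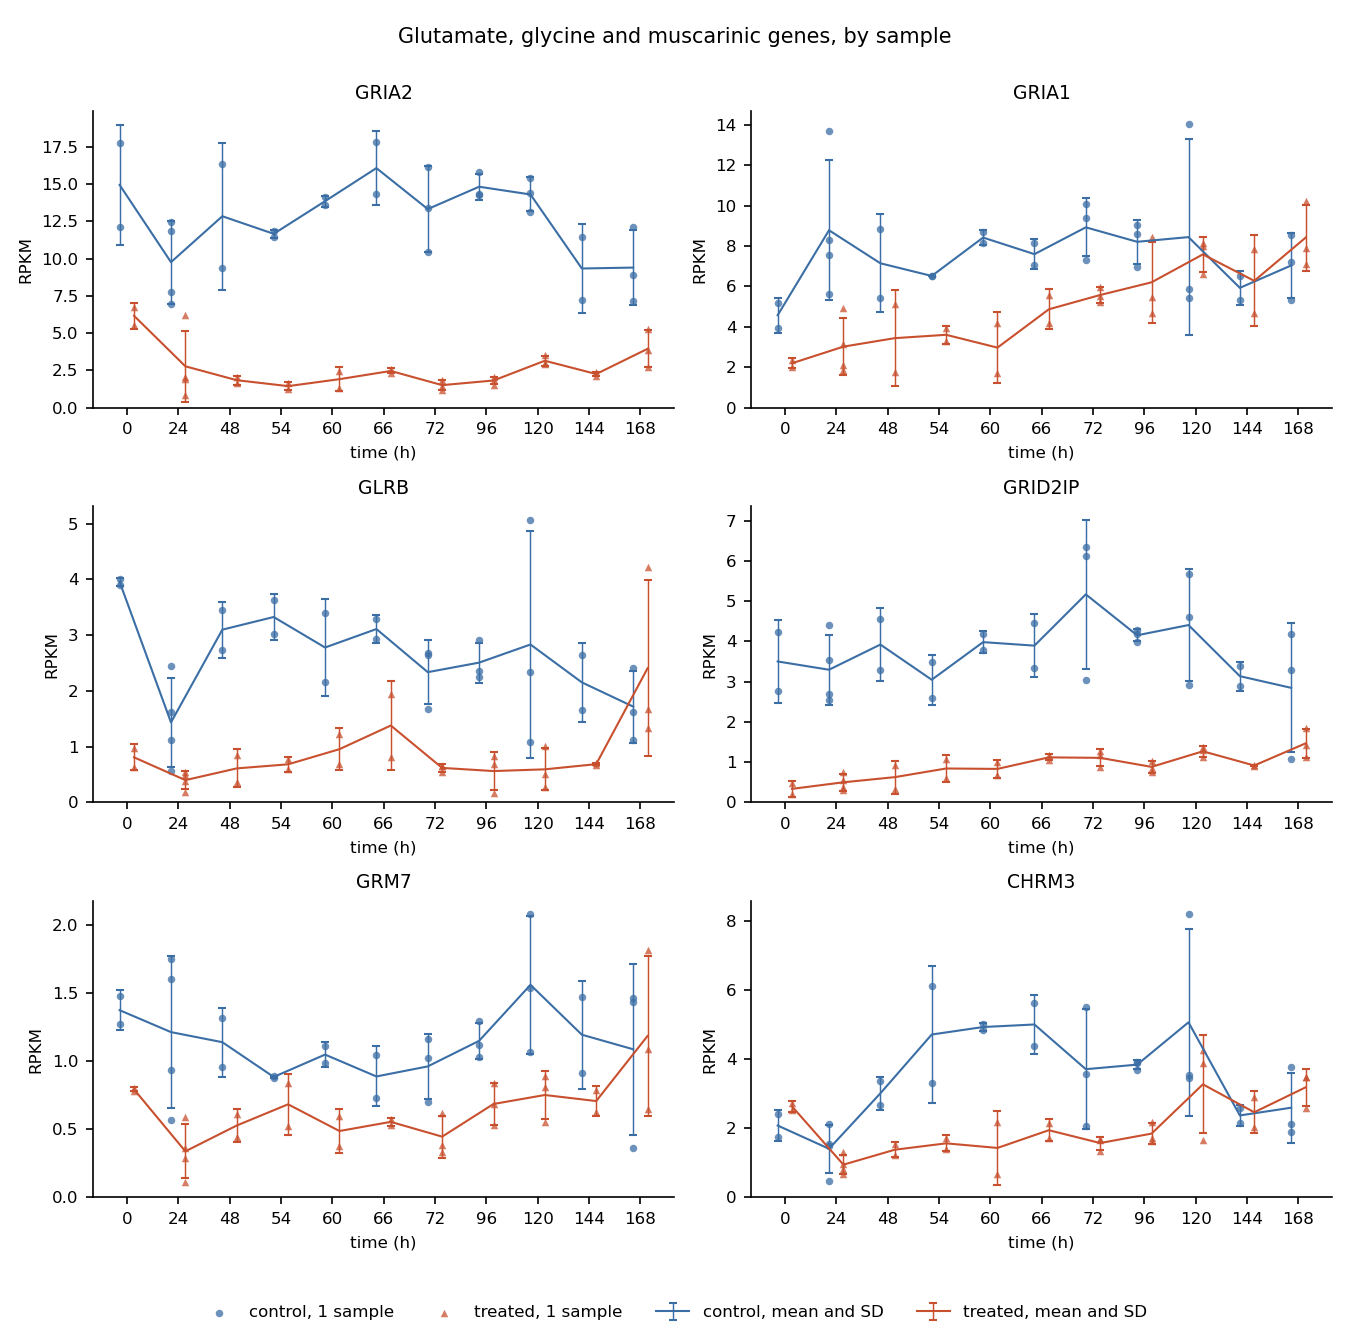
RPKM by time in hours for 6 genes that fell over the 11 times, each point 1 biological sample, lines joining group means with the SD as bars, control in blue circles and treated in orange-red triangles. Treated GRIA2 stays at or below 6.78 RPKM and under every control, whereas treated GRIA1 overlaps the controls at the last times.

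GLRB, the glycine receptor subunit that binds the scaffold gephyrin, fell in every window. From 48 to 72 h it spanned 1.68 to 3.62 RPKM (median 2.93) in controls and 0.371 to 1.95 RPKM (median 0.692) in treated utricles, with only the highest treated sample inside the control range. The effects were -1.43 ± 0.28 (adjusted p = 0.000278), -1.38 ± 0.20 (adjusted p = 5.18e-07) and -0.96 ± 0.20 (adjusted p = 0.000446). At 168 h the treated samples had 4.22, 1.33 and 1.67 RPKM, the first from the shallowest library, against 1.63, 1.13 and 2.40 RPKM in controls.

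GLRA4, a glycine receptor alpha subunit, went the other way. Over 96 to 168 h it spanned 1.36 to 5.35 RPKM (median 3.48) in controls and 3.30 to 9.48 RPKM (median 6.15) in treated utricles, and it rose by 0.82 ± 0.19 (adjusted p = 0.00197), and by 0.70 without control 168 h replicate 3 (adjusted p = 0.00526). Over 48 to 72 h the effect of 0.41 passed only with samples paired (blocked adjusted p = 0.0176). GLRA1 passed over 11 times only without libraries under 5000000 alignments (-0.42, adjusted p = 0.0003).

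Of the 8 GABA-A subunits 1 rose over 11 times and none fell, beside 18.5% of all rows higher and 12.5% lower. That count does not set these subunits apart. GABRG1, a gamma subunit, was higher by 0.46 ± 0.10 (adjusted p = 0.000388) and higher at 11 of 11 times, at 3.65 to 13.3 RPKM (median 8.66) in controls and 5.93 to 18.0 RPKM (median 12.96) in treated utricles. The arms overlapped. Its rise over 48 to 72 h (0.51 ± 0.16, adjusted p = 0.0161) rested in part on treated 60 h replicate 3, without which the adjusted p was 0.0518. Its late rise of 0.45 was lost on leaving out any of 13 single samples, control 168 h replicate 3 among them (adjusted p = 0.101). GABRA3, an alpha subunit, rose late by 0.86 ± 0.25 (adjusted p = 0.0154), and not without control 144 h replicate 2 (adjusted p = 0.0584).

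GABRA2, GABRA4, GABRB2, GABRP and GABRR3 passed in no window with all libraries and samples unpaired. Without libraries under 5000000 alignments GABRA4 passed over 48 to 72 h (-0.26, adjusted p = 0.0388). With samples paired GABRA2 (0.67, blocked adjusted p = 0.0288) and GABRR3 (-0.59, blocked adjusted p = 0.0352) passed over 0 and 24 h. Of 13 listed genes for GABA and glycine synthesis, uptake and anchoring only 4 met the level rule, and the glycine transporter SLC6A9 alone passed (-0.38 ± 0.10, adjusted p = 0.00304). The GABA-synthesising enzymes GAD1 and GAD2 and the vesicular transporter SLC32A1 were under it.

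Among ATP-gated channels P2RX7, known best from macrophages, was higher in treated utricles. From 48 to 72 h it spanned 1.76 to 4.17 RPKM (median 2.09) in controls and 2.73 to 5.07 RPKM (median 3.28) in treated utricles, and the only control above 2.31 RPKM was 1 of the samples at 48 h. It rose by 0.70 ± 0.22 over 0 and 24 h (adjusted p = 0.0299) and by 0.53 ± 0.16 over 48 to 72 h (adjusted p = 0.0119). Over 96 to 168 h the effect of 0.42 passed only with samples paired (blocked adjusted p = 0.0463), and it was 0.15 without libraries under 5000000 alignments. The early rise was lost without any of 5 single samples, all 4 of those at 0 h and treated 24 h replicate 1 (adjusted p up to 0.108). Leukocyte markers moved in both directions over 11 times, with 6 of 13 higher and 2 lower, beside 18.5% and 12.5% of all rows. Their summed RPKM was 31.6 to 91.4 in controls and 33.4 to 94.1 in treated utricles. The part of leukocytes in the P2RX7 values was not tested.

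P2RX4, the second most abundant of the 48, changed mainly with time. It spanned 20.5 to 31.8 RPKM (median 24.7) in controls over 0 and 24 h and 37.1 to 63.3 RPKM (median 49.5) over 96 to 168 h, with no overlap between these windows. In treated utricles the ranges were 22.4 to 31 RPKM and 32.1 to 57.5 RPKM. P2RX4 rose by 1.01 ± 0.11 within controls (adjusted p = 2.26e-08) and by 0.67 ± 0.11 within treated utricles (adjusted p = 1.57e-05). From 48 to 72 h it was lower in treated utricles by 0.31 ± 0.09 (adjusted p = 0.0139), and with samples paired also over 96 to 168 h (-0.23, blocked adjusted p = 0.0106). P2RX5 did not pass between arms in any window.

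P2RY2, a receptor for ATP and UTP, stood at 9.55 to 78.6 RPKM in controls (median 39.5) and 27.3 to 66.2 RPKM in treated utricles (median 47.1). Its late effect of 0.54 ± 0.20 missed the threshold (adjusted p = 0.0535; blocked 0.04). P2RY1, P2RY6, P2RY12 and P2RY13 passed in no window with all libraries. Without libraries under 5000000 alignments P2RY12 (0.36, adjusted p = 0.0471) and P2RY2 (0.66, adjusted p = 0.0205) passed over 96 to 168 h. Of 15 tested genes of purine release and breakdown and adenosine receptors 5 rose and 2 fell over 11 times, beside 18.5% and 12.5% of all rows. ENTPD1 and ENTPD2, which degrade extracellular nucleotides, rose by 0.54 and 0.41; ADORA2A, an adenosine receptor, fell by 0.70 and SLC17A9, the vesicular nucleotide transporter, by 0.47.

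**Figure D5:**
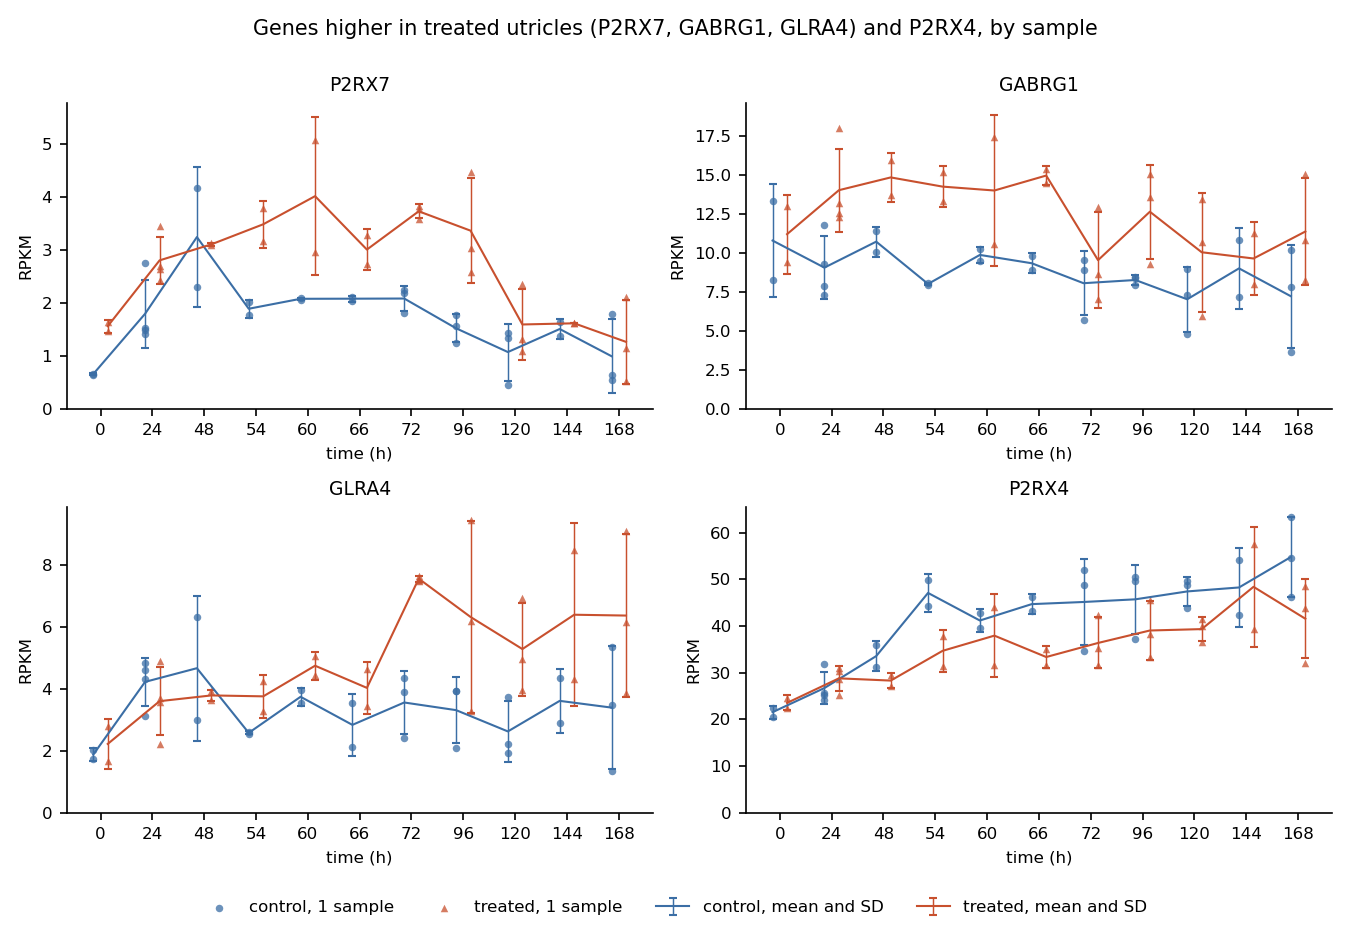
RPKM by time in hours for P2RX7, GABRG1, GLRA4 and P2RX4, each point 1 biological sample, lines joining group means with the SD as bars, control in blue circles and treated in orange-red triangles. P2RX7, GABRG1 and GLRA4 rose over the 11 times, P2RX4 climbs in both arms, and the arms overlap for all 4 genes.

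HTR1E, a serotonin receptor that inhibits adenylyl cyclase, fell early and returned. Over 0 and 24 h it spanned 2.01 to 5.57 RPKM (median 4.08) in controls and 0 to 1.67 RPKM (median 0.863) in treated utricles, with no overlap; over 96 to 168 h the ranges were 0.869 to 5.94 RPKM (median 4.45) and 2.61 to 5.78 RPKM (median 4.99). The effect went from -1.70 ± 0.33 (adjusted p = 0.000263) to 0.15 ± 0.23 (adjusted p = 0.738), a change of 1.85 ± 0.40 (adjusted p = 0.00327). Within treated utricles it rose by 2.01 (adjusted p = 8.47e-07). Its middle-window fall of 0.68 was lost on leaving out any of 8 single samples (adjusted p up to 0.113).

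HTR3A, a serotonin-gated channel, rose late by 0.70 ± 0.19 (adjusted p = 0.00848), at 0.612 to 2.09 RPKM (median 1.38) in controls and 0.986 to 5.42 RPKM (median 2.5) in treated utricles. The highest treated value came from the shallowest library, and without the libraries under 5000000 alignments the rise was 0.61 (adjusted p = 0.00826). HTR1D, HTR2A and HTR6 passed in no window with samples unpaired, and HTR6 did so late with samples paired (-0.51, blocked adjusted p = 0.0492). That HTR6 value was -0.21 without libraries under 5000000 alignments (adjusted p = 0.508).

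ADRA2A, an adrenergic receptor that lowers cyclic AMP, was the most abundant of the 48. It spanned 32.3 to 248 RPKM in controls (median 95.6) and 15.3 to 375 RPKM in treated utricles (median 66.3). Its effect of -0.49 ± 0.20 over 11 times did not pass (adjusted p = 0.0618), but passed with samples paired (adjusted p = 0.000568) and without control 168 h replicate 3 (-0.54, adjusted p = 0.0356). With samples paired ADRA2A also passed over 0 and 24 h (-0.98, blocked adjusted p = 0.00394) and over 48 to 72 h (-0.67, blocked adjusted p = 0.00322). Within treated utricles it rose by 1.94 from the first to the last window (adjusted p = 0.000175). The kinases ADRBK1 and ADRBK2 passed in no window with samples unpaired (ADRBK1 over 0 and 24 h 0.41, blocked adjusted p = 0.0438), and ADRBK2 stood at 12.2 to 21.2 RPKM in controls and 11.9 to 19.8 RPKM in treated utricles. Of 12 tested genes for monoamine synthesis and clearance, receptor kinases and arrestins 4 rose, among them SLC6A2 at 0.52. MAOB alone fell, by 0.78 ± 0.10 (adjusted p = 7.07e-08). Over the same 11 times 18.5% of all rows were higher and 12.5% lower.

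Between the first and the last window 6 of the 48 effects changed, all upward, against a background of 8.34% of rows (3.9% upward and 4.44% downward): CHRNA9, CHRNA10, CHRNA1, HTR1E, GRIA1 and GRID1. GRID1 lost this call without either control at 0 h or treated 0 h replicate 1. None of these calls was kept in the fit without replicate 2 of both arms, which leaves single samples in some groups. Without replicate 1 of both arms only those of CHRNA9 and CHRNA1 were kept. With samples paired 11 of the 48 effects changed, 10 of them upward, beside 18.8% of all rows in that fit. Within treated utricles 13 of the 48 rose from the first to the last window and 2 fell (background 33.6% of rows, 13.3% rising and 20.3% falling), with GABRA2 at -1.63. Within controls 3 rose and 8 fell (background 19.4%, 7.24% rising and 12.2% falling). These within-arm comparisons were added after the values were seen. By an F test over the 11 control groups CHRM3, CHRNA9, GRIA3, GRIK4, P2RX4 and P2RX7 differed between times (background 6.46%).

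At single times all calls were downward: 4 genes at 0 h (background 2.56%), 9 at 24 h (12.9%), 4 at 48 h (3.38%), 4 at 54 h (2.59%), 5 at 60 h (4.2%), 3 at 66 h (2.85%), 4 at 72 h (4.3%), 6 at 96 h (5.14%), 4 at 120 h (2.66%) and 1 at 144 h (0.519%). These background shares cover both directions. The share of all rows that were lower at single times is not given here, so the direction does not set the 48 genes apart. CHRNA9 and GRID2IP were among the calls at every time from 0 to 120 h, and GRIA2 from 24 to 144 h. At 168 h limma called none (background 1.41%). An unadjusted limma p under 0.05 was found there for 17 of the 48. The share of all rows at that unadjusted level is not given here, so this count does not set the 48 genes apart. Without control 168 h replicate 3 CHRNA9 stood at -1.44 and GRIA2 at -1.18 at that time, neither passing.

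Markers of other cells in the organ, measured beside these genes over 11 times, moved as follows, where 18.5% of all rows were higher and 12.5% lower. Of the supporting cell list 5 of 11 tested genes rose, HES5 and GJB6 most, and none fell, with summed RPKM of 465 to 1918 in controls and 975 to 2681 in treated utricles. Of the stroma list 9 of 11 rose, of the Schwann cell and glia list 4 of 8, of the melanocyte list 2 of 5 and of the smooth muscle list 2 of 5, with none falling. In the endothelium list 1 of 5 fell, CLDN5; in the ion-transporting epithelium list 1 of 7 rose and 1 fell; and of 3 tested erythroid and thrombocyte genes none passed. Their part in the receptor values was not tested.

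Levels differed widely among the 48. By mean control RPKM the highest were ADRA2A (109), P2RX4 (41.4), P2RY2 (39.4), CHRNA9 (38.2), CHRNA10 (21.0) and ADRBK2 (17.1), and 24 of the 48 were under 2 RPKM. Just inside the level rule, with 2 libraries, stood CHRNA4, GABRA4, GLRA1, GRIN1 and P2RY12, and just outside, with 1 library, ADRA1B, GABRA5, HTR7, P2RX3 and P2RY8. Of 12 genes that met the rule in 2 to 10 libraries 11 had their highest value in a library under 5000000 alignments.

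The remaining 37 symbols reached 1 RPKM in no library. They included CHRNA3, CHRNB3, CHRNB4, CHRND and CHRNG of 12 nicotinic genes, GRIN2A, GRIN2B and GRIN3A of 4 NMDA genes, GRM3, GRM5 and GRM8 of 6 metabotropic glutamate genes, and 7 GABA-A genes. GRIA4, GRIK2, GRIK3, GLRA2, GLRA3, GABBR2, CHRM2, CHRM5, P2RX1, P2RY10, P2RY14, ADRA2B, DRD1, DRD2, HTR1A, HTR1F, HTR2C and HTR5A were likewise under 1 RPKM throughout.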

How the data were processed

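Values were used as deposited: a table of 1 row per Ensembl transcript name and gene symbol, whose unit it does not name. They were read as RPKM made by the authors, since values times the library's alignments fell on whole steps (within 0.05) in 57% of 1315 low rows, against 9.66% without that product. TopHat 1.4.0 and Partek 6.6 are named in the submitters' processing notes; the sources used here do not give the genome build or the counting, so how reads of similar genes were shared is unknown. 2 columns matching no sample were not used.

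RPKM was analysed as log2(RPKM + 0.5), which understates changes of low genes. Repeat libraries were averaged, 56 samples and 22 group means were fitted with limma 3.58.1 in R 4.3.3 (trend, 34 residual degrees of freedom), and p-values were adjusted by Benjamini-Hochberg over 13862 rows. A permutation test within times (Python 3.11.15) compared genes within samples. Both were tested on simulated data, with outcomes not given here. The data simulated for limma held no link between samples of the same number and time. The genes named are CHRNA9, CHRNA10, the 12 largest called mean effects, the 3 largest rises and falls per window and the 6 highest levels; from the lists, at most the 2 largest called rises and falls. Exceptions are named as such. A few genes counted in the totals are not reported by name here. The 48 genes, the lists and the tests were chosen with earlier results of these data known.

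For the blocked fit, treated and control samples of 1 number and time were taken as paired. Their deviations correlated at 0.117 to 0.71 in the 16 pairs at times with 3 or 4 pairs. At times with 2 pairs both pairs share 1 value by construction, which was 0.0754 at 60 h. With these counted singly, 26 of all 28 pairs were above 0.1, so that count holds repeated values. The main fit has no block, and the permutation p-values given here do not use the pairing. Blocked values are given for many, but not all, of the calls that the block changed.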

Additional observations from a re-analysis of the deposited data

Results flagged for a closer look

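At 24 h, the only time with 4 samples per arm, 38 groups of values were tested for a sample far from the other 3, and 4 were marked, where chance marks about 1 in 20. ADRBK2 had 13.87 RPKM in control replicate 2, below the others. P2RX7 had 2.754 RPKM in that same control sample, above the others. HTR3A had 3.407 RPKM in treated replicate 1, and GABRG1 had 17.97 RPKM in treated replicate 4, each above the others. Control replicate 2 and treated replicate 1 were libraries under 5000000 alignments.

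The treatment effect differed between 0 and 24 h and 96 to 168 h in 6 genes by the test of that difference in limma with all samples. None of these calls was kept in the fit without replicate 2 of both arms, which leaves single samples in some groups. The late minus early difference in log2(RPKM + 0.5) was 2.28 for CHRNA9 (adjusted p = 0.000135), 2.04 for CHRNA10 (adjusted p = 0.00246), 1.85 for HTR1E (adjusted p = 0.00327), 1.54 for CHRNA1 (adjusted p = 0.000289), 1.12 for GRIA1 (adjusted p = 0.0174) and 0.91 for GRID1 (adjusted p = 0.0238). CHRNA9 also differed between the 11 times by the F test (F = 5.25, adjusted p = 0.0126).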

How the results depend on the processing

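No alternative reversed a within-sample test or any of the 72 called effects of the named genes. The counts of rises and falls in the last window did depend on 1 sample, and the share of all rows without it is not given here. There 7 genes rose and 5 fell with all samples, whereas 5 rose and 6 fell without control 168 h replicate 3. Effects that were not called could change sign without libraries under 5000000 alignments: HTR3A over 11 times went from 0.08 to -0.02, GLRB at 168 h from 0.30 to -0.125 and P2RX7 at 168 h from 0.235 to -0.31. Of 1063 recalculations of these effects, 955 kept the call and 108 lost it, 29, 40 and 13 of these in fits without replicate 1, 2 and 3 in both arms. In the total of 1063, the 56 fits that each left out 1 sample entered only as the lowest and the highest effect. Calls lost in others of those fits are therefore not among the 108. The count of genes whose effect changed from the first to the last window was 6, 11 with the replicate block and 11 with repeat libraries as separate samples. The F test of the effect between times gave 1 gene, 0 with a pseudocount of 0.1, 2 with trimmed-mean scaling, 3 with quantile normalization, 4 with the replicate block, 5 with repeat libraries separate, 2 without libraries under 5000000 alignments and 2 without control 168 h replicate 3, a choice made after seeing the data. The replicate block, fitted with 17 residual degrees of freedom, gave 18, 15, 17 and 17 genes over 11 times and the 3 windows, beside 41.8%, 23.1%, 28.6% and 27.1% of all rows; it could not be fitted for the tests within an arm. Causes were not tested.

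Leaving out replicates, singly or by number in both arms, gave 9 to 17 genes over 11 times, 3 to 13 over 0 and 24 h, 6 to 15 over 48 to 72 h, 4 to 14 over 96 to 168 h, 0 to 8 for the change between windows, 0 to 3 for the F test, 0 to 6 for controls over time, 8 to 17 for change within treated utricles and 1 to 13 within controls. CHRNA9 relative to the hair cell mean ranged from -1.92 to -1.43 in the first window and from -0.67 to -0.49 in the last, and CHRNA10 relative to CHRNA9 from 2.02 to 2.67 in the first; the first-window tests missed the threshold without replicate 1 or 2, where few permutations remain, and the last-window CHRNA9 test without replicate 1. Shares of all rows are given for the main fit and the replicate block only. Counts from the other fits therefore do not set the 48 genes apart from the rest of the table. Depth limits genes near 1 RPKM most, and groups of 2 to 4 samples limit every single-time test.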
